A study of Mus musculus with 4 samples.

Results

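Transcripts of 9 genes that mark retinal progenitors, Müller glia or astrocytes were followed in endothelial cells (ECs) sorted from mouse retinas. The genes were taken from the deposited table by symbol (Pax6, Pax2, Sox2, Sox9, Hes5, Rlbp1, Glul, Apoe and Gfap), and all 9 were among its 26822 genes. They were picked by name as markers of cells that the sort was meant to leave behind, with earlier results of these data known. The cells came from C57BL/6J pups at postnatal day 6 that the labels call control, with no transgene or agent named. Collagenase-digested retinas were sorted for living cells with CD31 and without CD45 on their surface, so that leukocytes were excluded by the gate while other retinal cells were left out only for lack of CD31. There is 1 group of 4 libraries, numbered 1 to 4, and no whole retina, sorted glia or other control. The study describes the libraries as independent samples, but whether each came from different animals is not stated, so any p-value measures only the spread between these samples, which may be technical.

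Retinal progenitors of the neural retina rely on the transcription factors Pax6 and Sox2 and on Notch signalling, whose effector Hes5 holds back neuronal differentiation. Müller glia are the last cells that progenitors give rise to. They keep Sox9, make Rlbp1 (the retinoid-binding protein CRALBP) and Glul (glutamine synthetase), and span the retina up to the vessels. Retinal astrocytes have another origin: they enter from the optic nerve, carry Pax2 and the filament protein Gfap, and form the network on which ECs migrate. Apoe, a lipid carrier, is made by glia and macrophages and has also been found in ECs, as has Glul.

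The promoters of 5 members are shown because these genes stand for what is described below: Hes5 and Rlbp1 for genes that varied, Gfap for a low library 2, and Glul and Apoe for genes that hardly varied. Each window runs from 250 bases before to 50 bases after a RefSeq start site (GRCm38.p6), written 5′ to 3′ on the gene's strand. Where RefSeq lists several starts, as for Apoe, the one listed first is given. Capitals mark TGGGAA (bound by RBPJ, the DNA-binding partner of Notch), GGAAGT (a core bound by ETS factors, which many EC genes use) or TATAAA, on either strand.
Hes5, chr4:154960673-154960972, plus strand: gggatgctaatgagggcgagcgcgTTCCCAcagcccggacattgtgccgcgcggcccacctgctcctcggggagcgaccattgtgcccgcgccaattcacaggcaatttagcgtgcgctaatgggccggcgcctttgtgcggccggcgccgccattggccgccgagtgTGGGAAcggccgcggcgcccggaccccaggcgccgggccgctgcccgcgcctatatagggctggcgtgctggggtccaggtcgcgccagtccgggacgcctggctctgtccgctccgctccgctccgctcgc
Rlbp1, chr7:79386978-79387277, minus strand: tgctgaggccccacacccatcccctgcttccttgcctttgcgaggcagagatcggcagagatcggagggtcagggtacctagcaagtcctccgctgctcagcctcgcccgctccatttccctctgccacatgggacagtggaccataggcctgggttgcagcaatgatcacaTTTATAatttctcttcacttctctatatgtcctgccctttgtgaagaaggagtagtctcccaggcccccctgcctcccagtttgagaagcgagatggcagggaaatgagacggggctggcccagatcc
Gfap, chr11:102897151-102897450, minus strand: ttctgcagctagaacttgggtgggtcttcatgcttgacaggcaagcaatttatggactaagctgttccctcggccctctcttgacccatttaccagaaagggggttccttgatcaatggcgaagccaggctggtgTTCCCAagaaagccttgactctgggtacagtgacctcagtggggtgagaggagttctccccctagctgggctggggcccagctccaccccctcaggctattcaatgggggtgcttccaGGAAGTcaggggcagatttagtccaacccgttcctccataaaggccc
Glul, chr1:153899679-153899978, plus strand: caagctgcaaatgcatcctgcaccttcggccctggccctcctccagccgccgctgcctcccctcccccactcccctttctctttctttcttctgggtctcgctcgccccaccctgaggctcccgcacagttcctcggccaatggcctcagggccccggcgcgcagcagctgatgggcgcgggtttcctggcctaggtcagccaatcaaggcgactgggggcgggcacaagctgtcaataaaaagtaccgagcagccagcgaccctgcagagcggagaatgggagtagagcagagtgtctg
Apoe, chr7:19699139-19699438, minus strand: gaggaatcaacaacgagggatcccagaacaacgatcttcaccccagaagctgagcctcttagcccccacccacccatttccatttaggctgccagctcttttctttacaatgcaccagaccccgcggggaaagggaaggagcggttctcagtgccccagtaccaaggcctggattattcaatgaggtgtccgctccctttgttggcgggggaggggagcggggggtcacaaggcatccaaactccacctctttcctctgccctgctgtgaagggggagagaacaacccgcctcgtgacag

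The Hes5 window held 2 copies of TGGGAA, 1 on each strand, and no GGAAGT or TATAAA. Of 32851 promoter windows, 25.6% held TGGGAA at least once and 3.79% held 2 or more copies. Gfap had 1 TGGGAA and 1 GGAAGT, and Rlbp1 had 1 TATAAA on the strand opposite to the gene. The printed windows of Glul and Apoe held none of the 3 motifs. Apoe has 3 listed starts, and its other windows did hold matches. Window 2 held 2 matches of the motif found in Rlbp1, and window 3 held 1 match of the motif found in Hes5. GGAAGT occurred in 23.8% and TATAAA in 13.6% of all windows, and TGGGAA and GGAAGT can overlap by their last and first 4 letters. A match is a description of letters and not a binding site. RefSeq windows were found for 8 of the 9 members and Sox9 had no entry.

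Values are normalised read counts as deposited, given for each library. The totals ran from 14843847 to 15017241, close to equal as normalised values are, and the sequencing depth itself is unknown. A gene is called detected at a mean of at least 10, which 15012 genes reached. Endothelial transcripts were abundant: all 16 endothelial identity genes were detected and the summed level of this list was 94984 in library 4, against 97377 to 99493 in the other libraries. Library 4 stood apart, with a Pearson correlation of log2 values across genes of 0.960 to 0.965 with the other libraries, against 0.970 to 0.974 among libraries 1 to 3. The summed level of 11 photoreceptor genes was 13741 in library 4 and 4766 to 5890 in libraries 1 to 3, with all 11 highest in library 4. Library 4 was singled out by its values and not by its labels, so its ratios below are descriptions without a test. Ratios are differences of log2(value + 1) between library 4 and the mean of libraries 1 to 3, a scale that understates differences of low genes.

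The detected members except Rlbp1 fell into 3 patterns, grouped after their values were seen, and some of them went with library 4. Of the 8 detected members, 4 (Sox2, Hes5, Pax6 and Sox9) had their highest value in library 4, where 30.6% of all detected genes did. At least 2-fold higher in library 4 was 1 member, Sox2, against 7.09% of all detected genes, and 0 members were 2-fold lower, against 2.34%. Glul and Apoe differed by at most 1.2-fold between their highest and lowest library, as did 40.3% of detected genes. Gfap followed neither of these patterns. Rlbp1, highest in library 1 and lowest in library 3, was not placed in any of the 3. Like Sox2, Hes5 and Sox9, it had higher values in libraries 1 and 4 than in libraries 2 and 3. The median log2 ratio of library 4 was 0.47 over the 8 detected members and -0.01 over all detected genes. Pax2 had a mean of 5 and was not detected.

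**Figure D1:**
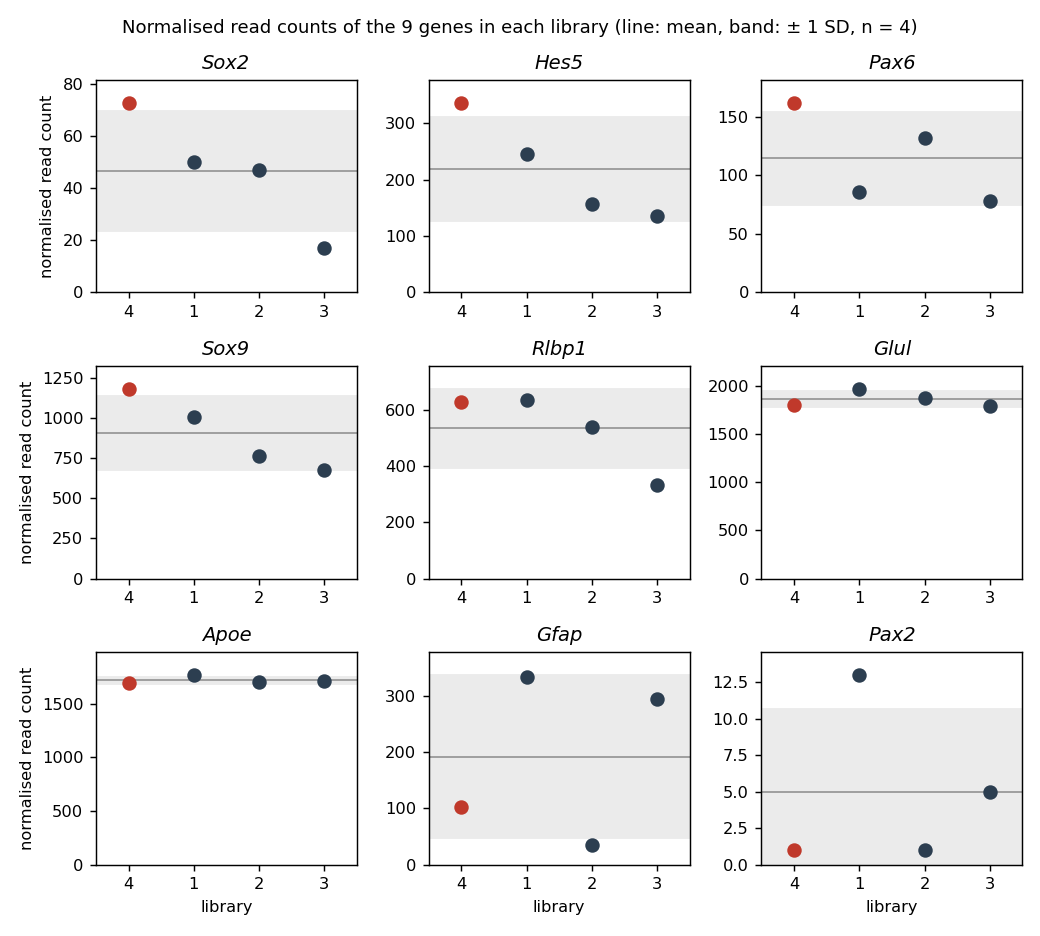
Normalised read count (y axis, from 0) of each of the 9 genes in libraries 4, 1, 2 and 3 (x axis). Points are single libraries with library 4 in red, the line is the mean and the band is ± 1 SD over the 4 libraries. Sox2, Hes5, Pax6 and Sox9 were highest in library 4, Glul and Apoe lay nearly level, and Gfap was lowest in library 2.

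Sox2, the progenitor factor that also persists in Müller glia, had a normalised read count of 73 in library 4, against 50, 47 and 17 in libraries 1, 2 and 3. Library 4 was highest and library 3 stood far below the others. The fold of library 4 was 2.10 (log2 ratio 1.07), and it dropped under 2-fold without library 3, with a log2 ratio of 0.58. The SD of log2 values over the 4 libraries was 0.87, against 0.34 without library 3. Sox2 lies on chromosome 3 from 34650405 to 34652461 (GRCm38, plus strand), inside the long transcript Sox2ot of the same strand. The exons of the 2 genes share 0 bases, and Sox2ot stood at 61 in library 4, against 27, 17 and 38 in libraries 1, 2 and 3.

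Hes5, the Notch effector of progenitors and glia, had 337 in library 4, against 246, 157 and 136 in libraries 1, 2 and 3. Libraries 4 and 1 were both above libraries 2 and 3, an order seen in 15.7% of detected genes. Of the 8 detected members 4 had it: Hes5, Sox2, Sox9 and Rlbp1. The library 4 fold of Hes5 was 1.93 and its SD of log2 values 0.60. On the opposite strand 433 exonic bases of Hes5 overlap those of Gm20421, which was not analysed here, and it is not given whether the counting used the strand. Hes5 lies on chromosome 4 from 154960923 to 154962371.

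Sox9 was the most abundant of the 4 genes that were highest in library 4, as deposited and per exonic base. It stood at 1182 in library 4, against 1003, 762 and 676 in libraries 1, 2 and 3. Its order of libraries was that of Hes5, with a smaller fold of 1.47. Sox9, which progenitors and Müller glia share, lies on chromosome 11 from 112782224 to 112787760 (plus strand).

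Pax6, which marks progenitors and stays on in amacrine and ganglion cells, had 162 in library 4, against 86, 132 and 78 in libraries 1, 2 and 3. Library 4 was highest, but library 2 came close to it. The library 4 fold was 1.68. Pax6 lies on chromosome 2 from 105668900 to 105697364 (plus strand), and the antisense gene Pax6os1, which shares 0 exonic bases with it, had values of 0 in library 4 and 4, 0 and 10 in libraries 1, 2 and 3.

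Rlbp1, the Müller glia and pigment epithelium gene for CRALBP, had 628 in library 4, against 636, 540 and 332 in libraries 1, 2 and 3. Library 4 lay within the range of the others, so Rlbp1 was set apart by a low library 3 and not by a high library 4. Its SD of log2 values was 0.44, against 0.13 without library 3. Of 8 pigment epithelium genes 3 were detected, and their summed level over the list was 224 in library 4 and 72 to 100 in libraries 1 to 3. All 3 detected genes were highest in library 4, with Best1 at 72 there, against 31, 50 and 30 in libraries 1, 2 and 3. Of the genes not detected, the defining enzyme gene Rpe65 was listed at 0 in library 4 and at 0, 1 and 0 in libraries 1, 2 and 3. Ttr had 25 in library 4, against 0, 0 and 5, and Mitf had 0, against 2, 2 and 3. The part of pigment epithelium in the values of Rlbp1 was not tested. Rlbp1 lies on chromosome 7 from 79374870 to 79387048 (minus strand).

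A low library 3 was shared by somewhat more members than a high library 4. Library 3 alone was lowest for 6 of 8 detected members (Pax6, Sox2, Sox9, Hes5, Rlbp1 and Glul), against 22.3% of detected genes. For Glul the margin was narrow, with 1796 in library 3 and 1801 in library 4. It was at least 1.5-fold below the others for 4 of them, Sox2, Hes5, Rlbp1 and Pax6, against 8.07% of detected genes. At the same 1.5-fold, 3 members were higher in library 4, against 12.2% of detected genes. The fold of the other libraries over library 3 was 1.80 for Rlbp1, 1.72 for Hes5 and 1.56 for Pax6.

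Glul, the glutamine synthetase of Müller glia, had 1801 in library 4, against 1972, 1879 and 1796 in libraries 1, 2 and 3. All 4 values lay within 1.10-fold of each other and library 4 was inside the range of the rest. The log2 ratio of library 4 was -0.06 and the mean 1862 ± 82.6 (SD, n = 4). Glul lies on chromosome 1 from 153899944 to 153909723 (plus strand). It shares 116 exonic bases with Teddm2 on the opposite strand, which stood at 44 in library 4 and 19 to 37 in libraries 1 to 3.

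Apoe was the steadiest member. It had 1689 in library 4, against 1768, 1701 and 1708 in libraries 1, 2 and 3, a range of 1.05-fold and a log2 ratio of -0.03. Apoe lies on chromosome 7 from 19696109 to 19699188 (minus strand). Library 1 was highest for 4 members (Apoe, Glul, Gfap and Rlbp1), against 20.3% of detected genes and 12 of the 16 endothelial identity genes. Library 4 was lowest for 1 member, Apoe, against 33.0% of detected genes and 11 of these 16. Macrophages are another known source of Apoe. Of 12 microglia and leukocyte genes 6 were detected, with none highest in library 4. The complement gene C1qb was at 0 in library 4 and at 35, 11 and 17 in libraries 1, 2 and 3. The CD45 gene Ptprc had a mean of 3.25.

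Gfap, the filament protein of astrocytes, varied most among the detected members. It had 103 in library 4, against 334, 36 and 295 in libraries 1, 2 and 3. Libraries 1 and 3 were high and library 2 was lowest, a 9.28-fold range, and Gfap was the 1 member for which library 2 alone was lowest (21.4% of detected genes). Libraries 1 and 3 were both above libraries 2 and 4 for Gfap and Apoe, an order seen in 18.0% of detected genes, but only in Gfap by a wide margin. The log2 ratio of library 4 was -0.57 and depended on which libraries it was set against: it was -0.01 without library 1, -1.60 without library 2 and -0.10 without library 3. The SD of log2 values was 1.49, against 0.93 without library 2. Gfap lies on chromosome 11 from 102887336 to 102900912 (minus strand).

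Pax2, the astrocyte transcription factor, was listed at 1 in library 4 and at 13, 1 and 5 in libraries 1, 2 and 3. The libraries with a value above 1 were those in which Gfap was high. Values this low may rest on 1 or a few reads. Pax2 lies on chromosome 19 from 44756045 to 44837871 (plus strand).

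**Figure D2:**
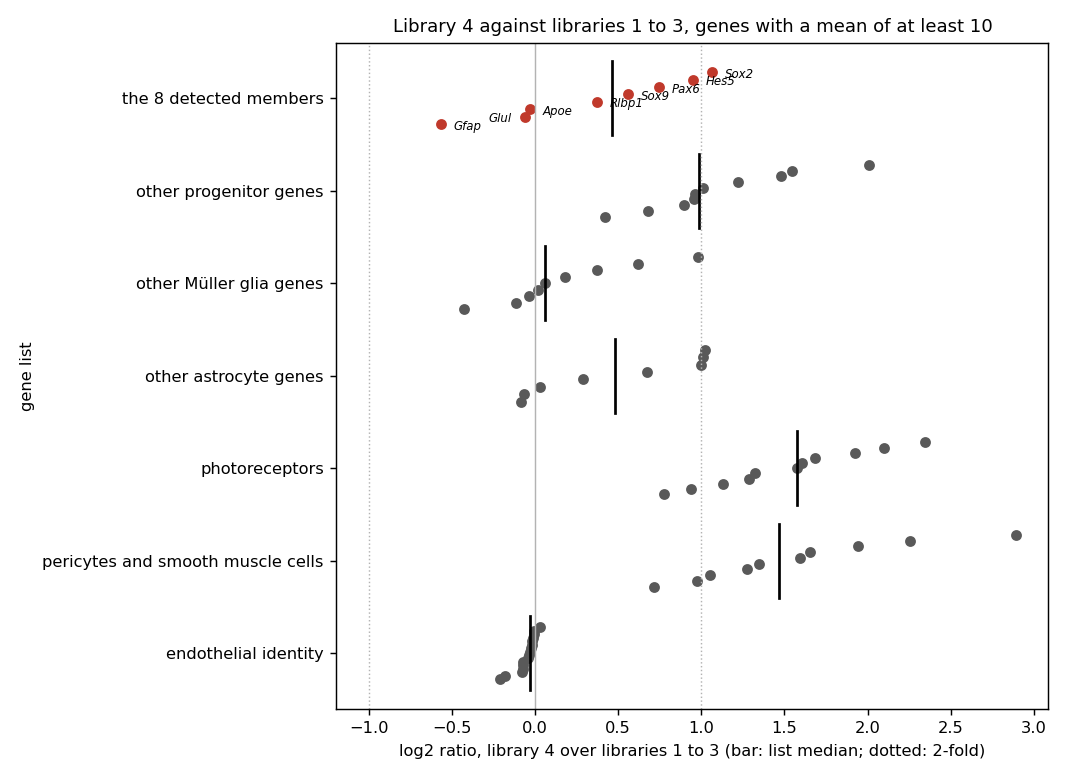
Library 4 set against libraries 1 to 3 as a log2 ratio (x axis) for each gene with a mean of at least 10, by gene list (y axis). Points are genes, bars are list medians, dotted lines mark 2-fold. The members ran from -0.57 for Gfap to 1.07 for Sox2, while the photoreceptor list had a median of 1.58 and the endothelial identity list one of -0.03.

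Lists of other genes of the same cell types were read beside the members. Of 12 other progenitor genes, 10 were detected and 9 of these were highest in library 4. At least 2-fold higher in library 4 were 5, and the median log2 ratio was 0.99. Rax, a homeobox factor of the early retina, had 496 in library 4, against 139 to 220 in libraries 1 to 3. Hes6, a relative of Hes5 that favours neuronal differentiation, had 1242 against 910 to 944. Neurog2, a proneural factor, had the highest ratio among the detected genes of the list, with 113 in library 4 and 82, 38 and 6 in libraries 1, 2 and 3. Library 3 was lowest for 7 of the 10, as for Sox2, Hes5 and Pax6.

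Of 12 other Müller glia genes, 9 were detected, with a median log2 ratio of 0.06, and none was 2-fold higher in library 4. The genes of this list differed in which library stood out. Dkk3, a secreted Wnt modulator of Müller glia, had 1085 in library 4, against 760, 529 and 412 in libraries 1, 2 and 3. The glutamate carrier Slc1a3 had 895 against 616 to 828. Car14, a carbonic anhydrase, was lowest in library 4, with 153, against 195 to 216 in libraries 1 to 3. Crym was set apart by a low library 3, as Rlbp1 was, with 475 in library 4, against 537, 521 and 337 in libraries 1, 2 and 3. The filament gene Vim (3212 in library 4, 3277 to 3333 in the others), the glutamine carrier Slc38a3 (4040 against 4313 to 4467) and Hes1 (2260 against 2227 to 2238) were steady, and ECs are known to express Vim and Hes1 too. Aqp4, the water channel of mature glial end feet, was listed at 0 in all 4 libraries, as was Abca8a. The potassium channel gene Kcnj10 stood at 16 in library 4 and at 3, 15 and 1 in libraries 1, 2 and 3.

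Some astrocyte genes were lowest in library 2, as Gfap was. S100b, a calcium-binding protein of astrocytes, had 19 in library 4, against 51, 3 and 45 in libraries 1, 2 and 3, the order of Gfap. Pdgfra, the receptor through which neurons draw astrocytes into the retina, had 553 in library 4, against 763, 56 and 487 in libraries 1, 2 and 3. Aldoc, a glial aldolase, had 151 in library 4, against 290, 58 and 111. These 3 of the 8 detected genes of the list were at least 2-fold lower in library 2, as was Gfap among the members. The background for this was 4.05% of detected genes. Steady genes of this list were the gap junction gene Gja1 (5712 in library 4, 5570 to 5656 in the others) and Nes (5121 against 5239 to 5460), both known in ECs. Aldh1l1, an enzyme that marks astrocytes, had a mean of 7 and was not detected, and Gjb6 was not analysed here. Of the 8 detected genes, 4 were highest in library 4 and 3 at least 2-fold higher there (Fabp7, Slc1a2 and Pdgfra). Pdgfra itself was highest in library 1, and the mean it was set against includes its 56 in library 2.

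Genes of pericytes and smooth muscle cells, which also touch ECs, were mostly high in library 4 and in part low in library 2. Their summed level over 10 genes was 3801 in library 4 and 2049, 586 and 2246 in libraries 1, 2 and 3, with 8 of the 10 at least 2-fold higher in library 4 (median log2 ratio 1.47) and 6 at least 2-fold lower in library 2. The contractile genes Acta2, Des and Myh11 were lowest in library 1. All 10 genes were detected and none of the defining markers stood at 0. Erythroid genes were lowest in library 2 for 5 of 5. Their part in the values of Gfap was not tested, and in bulk RNA fewer cells of a type and less RNA per cell cannot be told apart.

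**Figure D3:**
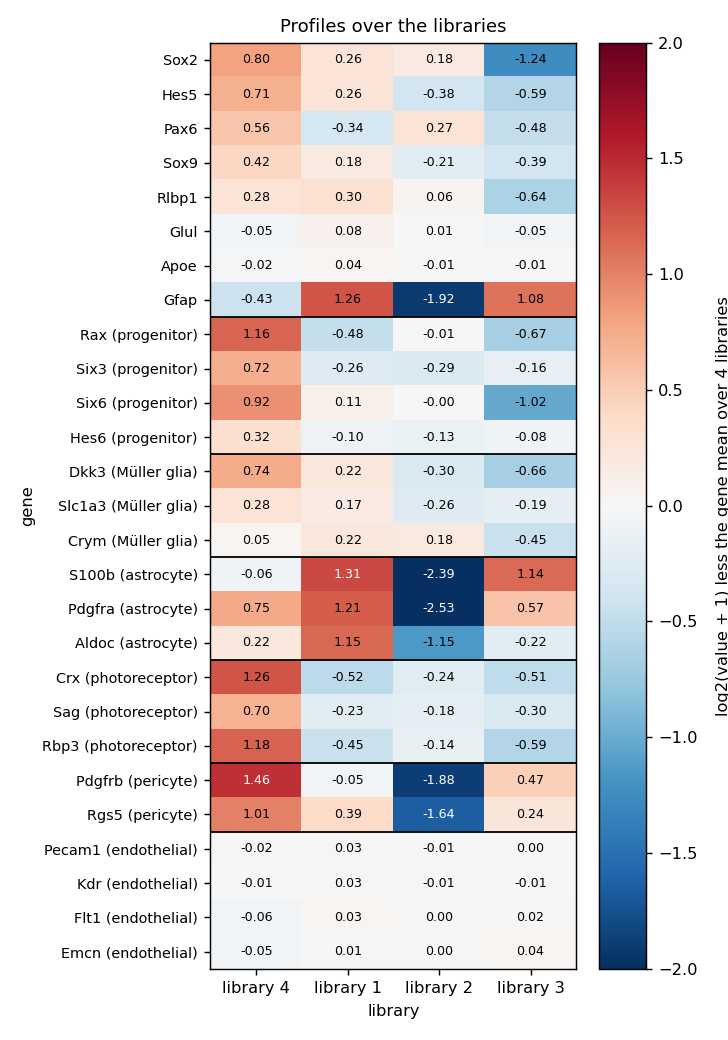
Log2(value + 1) less the mean of the gene over 4 libraries (colour and printed number), for the 8 detected members and for example genes of other lists chosen after their values were seen (rows), by library (columns). The progenitor and photoreceptor rows are red in library 4, and Glul, Apoe and the endothelial rows are near 0. Gfap and the astrocyte rows are blue in library 2. These astrocyte rows are the 3 of 8 detected genes of that list that were at least 2-fold lower there.

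The spread of a gene between libraries depended strongly on its level, which bears on how the steady members are read. Among all detected genes the median SD of log2 values was 0.78 below 0.01 normalised reads per exonic base, 0.14 between 0.1 and 0.3, 0.059 between 0.6 and 1, and 0.033 at 1 or more. None of the 1727 genes between 0.6 and 1, and none of the 1034 genes at 1 or more, was 2-fold higher in library 4. Apoe, with 0.934 per exonic base, and Glul, with 0.667, were in this range. Against the 500 genes nearest in level per exonic base, the SD of Apoe (0.029) stood at percentile 21 and that of Glul (0.063) at percentile 47. Among the 500 genes nearest in mean, the percentiles were 10.6 for Apoe and 40.2 for Glul. The evenness of Glul was thus usual for its level, and Apoe was on the even side.

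A gene at the level of Glul could still vary with library 4. The photoreceptor gene Sag, at 0.708 per exonic base, had 1907 in library 4, against 953 to 1036 in libraries 1 to 3, a log2 ratio of 0.94. Such a ratio was extreme at this level: the highest among the 1727 genes between 0.6 and 1 was 0.96, for Nr4a1. Endothelial genes near this level differed in evenness. Flt1, at 0.823 per exonic base, had a log2 ratio of -0.08 and Emcn, at 0.969, one of -0.07. Their SDs of 0.041 and 0.039 lay between those of Apoe (0.029) and Glul (0.063). Vwf, at 1.09, was less even, with a log2 ratio of -0.18 and an SD of 0.095. Robo4, at 1.17, was more even, with an SD of 0.020. It was not tested whether the narrow spread at high levels comes from how the counts were made.

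The other members differed in how far their spread exceeded that of genes of like level. Hes5 and Gfap stood at percentile 99.2 of SD, Rlbp1 at 98.8 and Sox9 at 97.4, each against its own 500 nearest genes. Sox2 was at percentile 86.8. Pax6, the least abundant detected member per exonic base, was at percentile 55.6, near the middle for its level per exonic base. The percentiles differed when the 500 genes nearest in mean were used. They were then 72.6 for Pax6, 84.8 for Sox2, 91.2 for Hes5, 97.8 for Rlbp1 and Sox9 and 99.6 for Gfap. Erg, an endothelial transcription factor near the level of Rlbp1 and Sox9 at 0.264 per exonic base, had an SD of 0.11, against 0.44 for Rlbp1 and 0.37 for Sox9.

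**Figure D4:**
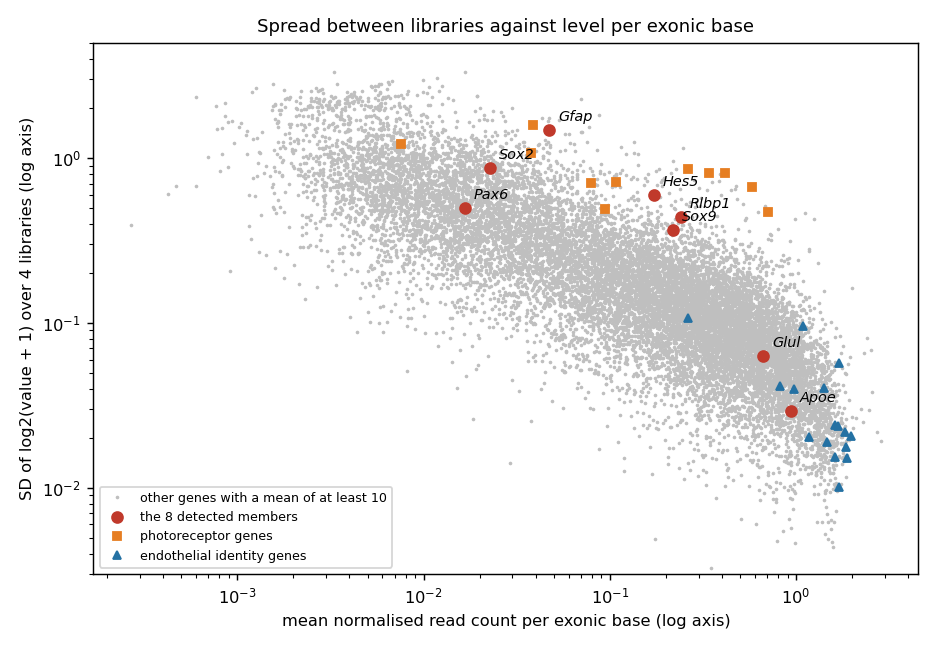
SD of log2(value + 1) over the 4 libraries (y axis, log) against the mean normalised read count per exonic base (x axis, log) for genes with a mean of at least 10. Red points are the 8 detected members, orange squares photoreceptor genes, blue triangles endothelial identity genes. At their levels Glul lies in the middle of the grey cloud and Apoe in its lower part, whereas Hes5, Rlbp1, Sox9 and Gfap lie at its upper edge.

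Per exonic base the members were ordered Apoe (0.934), Glul (0.667), Rlbp1 (0.240), Sox9 (0.219), Hes5 (0.172), Gfap (0.047), Sox2 (0.023), Pax6 (0.017) and Pax2 (0.001). The levels thus spanned the range from the 91.9th percentile of detected genes for Apoe to the 17.8th for Pax6. Each neighbouring pair in this order was set against the other by a two-sided exact permutation test on log2 values per exonic base, 4 values against 4, with Benjamini-Hochberg adjustment over 8 pairs. Apoe over Glul (log2 difference 0.49), Glul over Rlbp1 (1.52), Hes5 over Gfap (2.24) and Pax6 over Pax2 (4.06) kept this order in 4 of 4 libraries and had no overlapping values. Each had an exact p of 0.0286, the smallest this test can give, and an adjusted p of 0.0571, so that no pair passed the threshold of 0.05. With a pseudocount of 10 Pax6 over Pax2 was 2.43, since Pax2 is so low. With the longest transcript as length Hes5 over Gfap was 1.62 and kept its order in 3 of 4 libraries (p = 0.143, exact permutation test). The remaining pairs overlapped and were not told apart by this test: Rlbp1 and Sox9 (log2 difference 0.12, adjusted p = 0.743, exact permutation test), Sox9 and Hes5 (0.40, adjusted p = 0.503), Gfap and Sox2 (0.73, adjusted p = 0.571) and Sox2 and Pax6 (0.37, adjusted p = 0.620). Sox9 nevertheless lay above Hes5 in each of the 4 libraries, a test that pairs the genes by library being unable to give an exact p under 0.125.

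The genes most like each member over the 4 libraries were sought among genes with a mean of at least 100, by the Euclidean distance between log2 values less their gene mean. This likeness over 4 libraries is a description, and all genes share the scaling of those libraries. For Gfap the nearest of 10811 genes were Slc6a11, a GABA carrier of astrocytes, at distance 0.59, Mlc1, an astrocyte membrane protein, at 0.88, and Id4, a regulator of neural precursors, at 1.36. Slc6a11 had 60 in library 4, against 189, 31 and 147 in libraries 1, 2 and 3. Mlc1 had 188 in library 4, against 276, 34 and 282. All 3 were lowest in library 2, and none lay within a distance of 0.2.

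For Hes5 the nearest gene was Dkk3 of the Müller glia list, at distance 0.12 and the only gene within 0.2, followed by Tox2 (0.24) and Spag1 (0.27). For Pax6 they were Insm2 (0.12), Ppp1r3d (0.14) and Six3os1 (0.15), a transcript antisense to the eye field gene Six3. Six3os1 had 229 in library 4, against 114, 161 and 101. For Sox2 they were Dact3 (0.13), Ank3 (0.28) and Lrig3 (0.33), for Sox9 Ehhadh (0.048), Ddb2 (0.071) and Kif3c (0.076), and for Rlbp1 Clic5 (0.11), Adamts8 (0.12) and Ccdc138 (0.17). Within 0.2 lay 31 genes for Sox9, 8 for Rlbp1 and 7 for Pax6. Steady genes have many such neighbours: 4960 genes lay within 0.2 of Glul and 5658 within 0.2 of Apoe. The nearest of these (Triap1, AI413582 and Nupl2 for Glul, and Galk1, Impa2 and Cnn2 for Apoe) therefore say little.

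Within their gene families Sox9 and Hes5 had more abundant relatives, whereas Pax6 was the highest of the Pax genes found. The endothelial SoxF genes Sox7 (4644 in library 4, 4655 to 4830 in the others), Sox17 (3927 against 3640 to 3960) and Sox18 (2685 against 2747 to 2829) lay above Sox9 per exonic base (1.42, 0.943, 1.70 and 0.219 for Sox7, Sox17, Sox18 and Sox9). Of the glial and neural relatives, Sox8 had 109 in library 4, against 38, 93 and 64, and Sox3 had 21 against 41, 23 and 7. Hes1, at 1.53 per exonic base, exceeded Hes5 at 0.172. Heyl, a Notch target of mural cells, had 447 in library 4, against 260, 104 and 138, with library 2 lowest. Of the Pax genes found, Pax6 and Pax8 were detected, and Pax8 stood at 30 in library 4, against 47, 2 and 26.

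Lists of the pathways in which Glul, Apoe and Rlbp1 work, each counting the member itself, differed in how many genes were steady. Of all detected genes 40.3% were steady. The lists also differed in level, on which spread depended. Their median per exonic base was 0.76 for glutamate and glutamine handling, 0.56 for lipid transport and 0.20 for retinoid handling. Of 8 genes of glutamate and glutamine handling, all detected, 5 were steady by the 1.2-fold rule and 1, the glutamate carrier Slc1a2, was 2-fold higher in library 4 (135, against 54 to 96 in libraries 1 to 3). The glutamine carrier Slc38a5 had 3390 in library 4, against 3418 to 3509. Of 11 genes of lipid transport 10 were detected and 6 were steady. The lipoprotein receptor Lrp8 had 13235 in library 4, against 13407 to 13623, and Lrp1, a receptor that binds Apoe, was 2-fold higher in library 4, with 258, against 189, 76 and 58 in libraries 1, 2 and 3. Apoc1, the neighbour of Apoe on the chromosome and a macrophage gene, was listed at 0 in library 4 and at 8, 6 and 4 in libraries 1, 2 and 3. Of 12 retinoid genes 10 were detected, of which 2 were steady and 3 were 2-fold higher in library 4 (Rgr, Crabp1 and Rbp3). Rbp3, the retinoid carrier made by photoreceptors, had 4395 in library 4, against 1288 to 1750, whereas the retinol-binding protein receptor Stra6 had 2065, against 2176 to 2318.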

How the data were processed

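RNA of sorted retinal ECs was sequenced. The paper describes stranded mRNA libraries for RNA of HUVECs, and whether these samples were prepared in that way is not certain. The values have the unit score: the authors deposited whole numbers per Ensembl gene, which are read counts normalised between libraries and rounded, and the method of normalisation, the aligner and the counter are not given in the sources used here for these mouse samples. FastQC is named in the submitters' processing notes. The extraction text for these samples names another cell type, HUVECs. Of 26834 rows, 11 symbols stood on more than 1 row and only their most abundant row was used, which gave 26822 genes. Values were taken as log2(value + 1), and a mean of at least 10 called a gene detected. Exonic lengths came from GENCODE M21 (GRCm38), whose positions equalled those in the table for 99.2% of matched identifiers. Named genes were the 9 members, the 3 genes most like each, and, per list, genes of highest mean or largest ratio, and further list genes were named after their values were seen. The members and lists were chosen with earlier results of these data known. Alternatives changed the pseudocount, scaling, length, minimum, fold and libraries. Analyses used Python 3.11.15 with numpy 2.4.6, pandas 2.3.3 and scipy 1.17.1, and were tested on simulated data. Values of some list genes are not reported here.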

Additional observations from a re-analysis of the deposited data

Results flagged for a closer look

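Of 29 values examined for a library far from the other 3, 1 stood out: the list of amacrine and horizontal cell genes, some of which share Pax6 with progenitors. Its median log2 level less the gene mean was 0.79 in library 4, against -0.40, -0.33 and -0.28 in libraries 1, 2 and 3. The gap to the nearest library was 0.901 of the range, over Dixon's critical value for 4 samples, and chance sets apart about 1 in 20 groups. Of the 8 genes found 5 were detected, and Gad2, which makes the transmitter GABA, had 100 in library 4, against 24, 9 and 0. No member was set apart in this way.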

How the results depend on the processing

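With the values scaled to the endothelial identity genes, the log2 ratio of Apoe in library 4 was 0.023 in place of -0.031. The number of members at least 2-fold higher in library 4 was 1 as reported, 3 at 1.5-fold (12.2% of detected genes), 0 at 3-fold (3.00%) and 0 among genes with a mean of at least 100 (2.16%). With another library singled out in place of library 4, a check added after seeing the data, it was 0 for library 2 and 1 each for libraries 1 and 3. Without division by length 6 of 8 neighbouring pairs passed the threshold in place of 0, and 3 log2 differences turned: Apoe over Glul (-0.12), Rlbp1 over Sox9 (-0.77) and Sox2 over Pax6 (-1.38). With the longest transcript as length, also added after seeing the data, Sox2 over Pax6 was -0.27 and Hes5 over Gfap 1.62, against 2.24 as reported and 0.56 (p = 0.514, exact permutation test) without division by length. Gfap over Sox2 ran from -0.042 without library 3 to 1.43 without library 2. Without 1 library at a time, 0 pairs passed, but 3 values against 3 cannot give a p under 0.1. The causes of these changes were not tested. With the genes paired by library, also added after seeing the data, 0 pairs passed, and the exact sign-flip test of 4 pairs cannot give a p under 0.125. The sequencing depth is unknown, so low values such as those of Pax2 carry no counting interval.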
